A study of Sus scrofa with 2 samples.

Results

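The genes described here make, move and regulate cholesterol and fatty acids in PSI, a clone of smooth muscle cells from pig ileum. The members were a list of 42 sterol and fatty acid genes drawn up by their known function, with earlier results of these data known, and were found in the table by pairing each identifier with its pig symbol. Of the 42, 40 had an identifier in the table of 25880 identifiers, 14857 of them with a symbol. PMVK and ACACB were not analysed here.

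The series holds 1 group, PSI, with 2 RNA-seq libraries called replicates 1 and 2. The cells came from ileum and were grown in DMEM with 10% FBS and antibiotics, with no treatment and no second cell type or time. PSI is a single clone, and the sources used here do not give the breed, age or sex of the donor pig or how the line was made to grow. Nothing in the labels says that the libraries came from separate cultures, so every SD is the spread between 2 libraries and may be technical. Levels are FPKM, fragments divided by the gene's length and by the library total. Because of the division by length, one gene's level can be compared with another's, as far as the length and reads counted for each gene are complete.

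As background, cells build cholesterol from acetyl-CoA through mevalonate and squalene, and build saturated fatty acids from the same acetyl-CoA, which are then elongated and desaturated. Both routes are driven by the SREBP transcription factors, which are held in the endoplasmic reticulum by SCAP and INSIG proteins while sterols are plentiful and are released to the nucleus when sterols are scarce. Proliferating cells use these lipids for membranes, and smooth muscle also depends on membrane cholesterol for its caveolae.

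The recovered library totals were 35176565 and 32217729, and a single read on 1 kb of gene counted as 0.0284 and 0.0310 FPKM, respectively. Of 7 smooth muscle markers, 5 reached 1 FPKM in both libraries, beside 61.5% of all identifiers with a symbol. The count alone therefore does not set these markers apart. ACTA2 was the highest of them, with 702 and 685 FPKM. ACTG2 had 489 and 468, CNN1 253 and 255, TAGLN 5.34 and 5.58 and DES 2.74 and 3.06 FPKM, while MYH11 stood under 1 FPKM and MYOCD was listed at 0. Of 9 measured adipocyte markers, 1 reached 1 FPKM: LIPE, a lipase, had 2.76 and 2.53 FPKM. PPARG stood just under that level with 0.746 and 0.953 FPKM, and ADIPOQ, LEP and FABP4 were listed at 0 in both libraries. The summed level of that list was 3.71 and 3.92 FPKM. The 7 hepatocyte markers summed to 0.448 and 0.390 FPKM, with ALB highest at 0.372 and 0.333 and APOB, APOA2, TF and SERPINA1 at 0. The 6 enterocyte markers summed to 0.117 and 0.173 FPKM, with MTTP highest at 0.117 and 0.165 and VIL1, CDH1, FABP2 and APOA4 at 0. Of 5 measured macrophage markers 1 passed, CD68 with 1.17 and 1.32 FPKM, while PTPRC and CD163 were at 0 and the list summed to 1.30 and 1.41. In bulk RNA, fewer cells of a type and less RNA per cell cannot be told apart.

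Most of the lipid genes were expressed, over a wide range. Of the 40 measured members, 36 were at 1 FPKM or more in both libraries, beside 61.5% of all identifiers with a symbol and 40.9% of all identifiers. At 10 FPKM or more in both libraries there were 24 of 40, beside 32.8% of identifiers with a symbol. The median member stood at 14.1 FPKM, or 3.92 on the log2(FPKM + 1) scale, where the median over all identifiers with a symbol was 3.90 FPKM and 2.29. The members ran from 0.0593 FPKM (ABCG1) to 92.7 FPKM (FADS2). Their share of all FPKM in the table was 0.216% in replicate 1 and 0.217% in replicate 2. The 6 highest, FADS2, ACSL4, FASN, FADS1, ELOVL5 and NPC2, held 46.6% of the members' sum in each library.

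**Figure D1:**
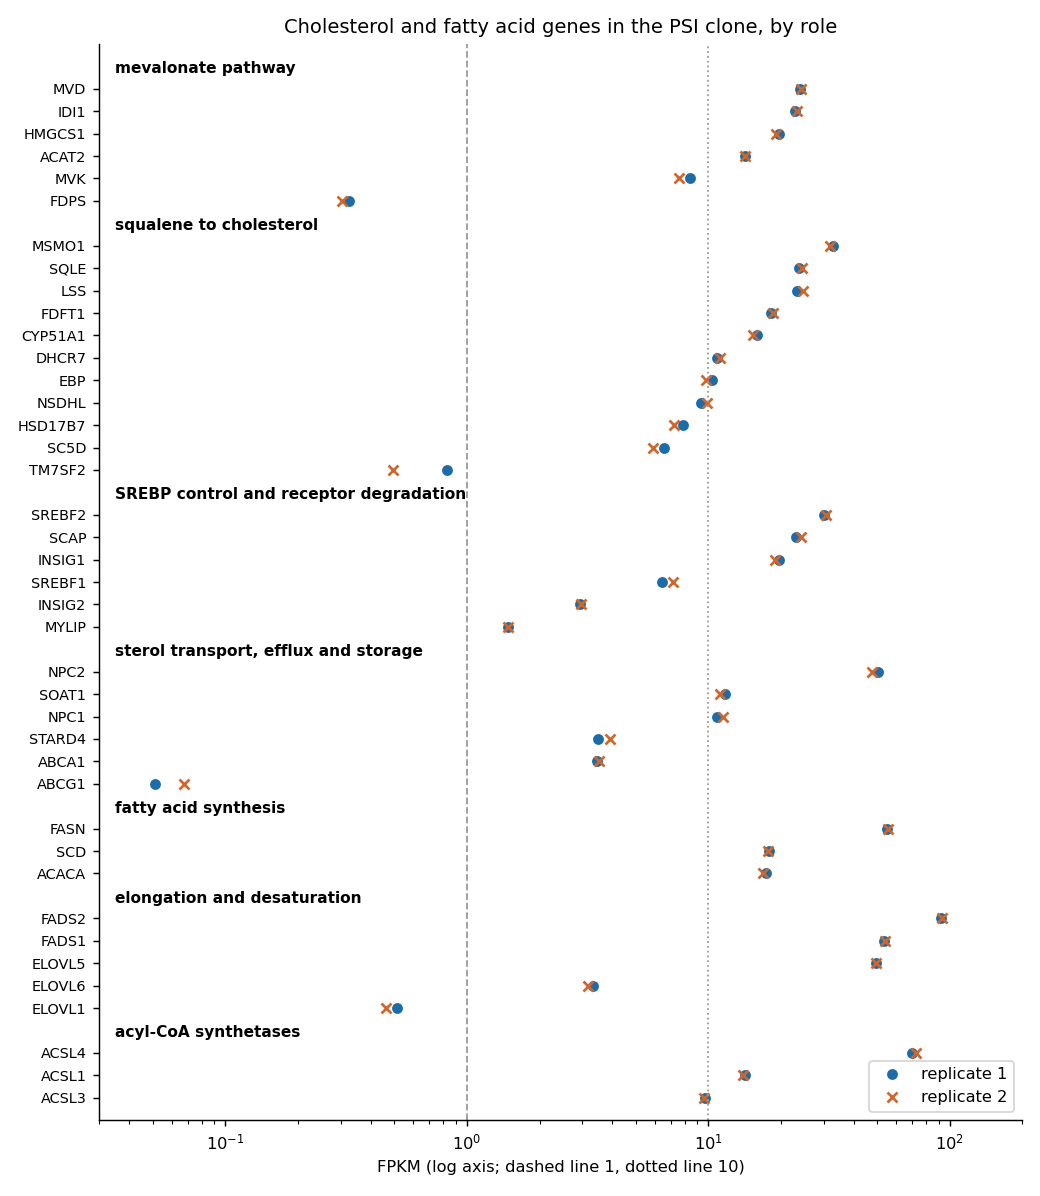
FPKM on a log axis of each of the 40 measured genes in replicate 1 (circles) and replicate 2 (crosses), grouped by role and ordered by mean, with lines at 1 and 10 FPKM. The 4 genes left of the dashed line are FDPS, TM7SF2, ABCG1 and ELOVL1, and the highest, FADS2, stood at 92.4 and 93.0 FPKM.

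**Figure D2:**
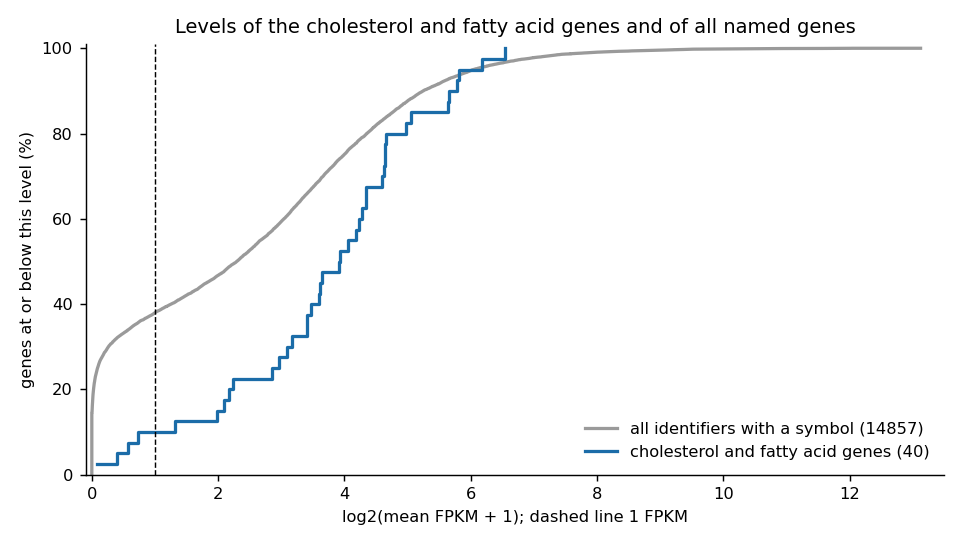
Cumulative share of genes (%) at or below a level, on the log2(mean FPKM + 1) scale, for the 40 measured genes (blue steps) and all 14857 identifiers with a symbol (grey line). The blue line lies right of the grey one over most of the range, with medians of 3.92 and 2.29, and meets it near its top, where FADS2 ends it.

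The early enzymes of the sterol route, from acetyl-CoA to farnesyl diphosphate, had a median of 16.8 FPKM over 6 measured genes, and 1 of them was under 1 FPKM. ACAT2, the cytosolic thiolase that joins acetyl-CoA units, had 14.2 FPKM in replicate 1 and 14.2 in replicate 2. HMGCS1, which adds a further acetyl unit to make HMG-CoA, had 19.6 and 19.1 FPKM. MVK, the kinase of mevalonate, had 8.42 and 7.58 FPKM. These genes kept the same order in both libraries. MVD, the decarboxylase that yields the first isoprene unit, had 24.1 and 24.3 FPKM, and was the highest of the 6 measured genes of this stretch. IDI1, the isomerase of that unit, had 22.9 and 23.4 FPKM. FDPS, which condenses isoprene units to farnesyl diphosphate, had 0.324 and 0.305 FPKM, far below its neighbours in the route.

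FDPS was the lowest of the 17 measured sterol enzymes in both libraries. IDI1, the enzyme gene before it, was 70.6-fold and 76.6-fold higher in replicates 1 and 2, and FDFT1, the one after it, was 55.8-fold and 61.02-fold higher. The FDPS value rests on 36 and 31 recovered reads. The RefSeq model of FDPS on Sscrofa11.1, a protein-coding gene on chromosome 4 from 94500140 to 94514820, overlaps no other RefSeq gene, and whether reads shared with near-identical copies were lost in the authors' counting was not tested. Low values also occurred in TPI1, a glycolytic enzyme gene, with 0.424 and 0.224 FPKM, and in RPL29, a ribosomal protein gene, listed at 0 in both libraries. Both were picked after the values were seen, and the share of such widely used genes that are low is not given here. Why FDPS is low was not tested.

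From squalene onward, the 11 enzyme genes had a median of 11.04 FPKM, again with 1 gene under 1 FPKM. FDFT1, squalene synthase, had 18.1 and 18.6 FPKM. SQLE, squalene epoxidase, had 23.7 and 24.5 FPKM, and LSS, which closes the lanosterol ring system, had 23.4 and 24.6 FPKM. The SQLE and LSS ranges overlapped, so their order is not beyond the spread between libraries. CYP51A1, the lanosterol demethylase, had 15.9 and 15.4 FPKM. MSMO1, the methylsterol monooxygenase, had 32.8 and 31.9 FPKM and was the highest of the 11 genes of this stretch in both libraries. NSDHL, which acts with MSMO1 to remove methyl groups, had 9.32 and 9.91 FPKM.

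The other genes from squalene to cholesterol were mostly lower. HSD17B7, a sterol ketone reductase, had 7.88 and 7.18 FPKM. EBP, a sterol isomerase, had 10.4 and 9.76 FPKM, which overlapped the range of NSDHL. SC5D, a sterol desaturase, had 6.53 and 5.89 FPKM. All 3 were below each of FDFT1, SQLE, LSS, CYP51A1 and MSMO1 in both libraries. DHCR7, the reductase that makes cholesterol from its immediate precursor, had 10.9 and 11.2 FPKM. TM7SF2, a sterol reductase, had 0.827 and 0.495 FPKM, from 31 and 17 reads. At 35.5%, its coefficient of variation between libraries was the largest among the 40 members. SQLE was 28.7-fold higher than TM7SF2 in replicate 1 and 49.4-fold higher in replicate 2. The RefSeq model of TM7SF2, on chromosome 2 from 7076778 to 7081502, overlaps no other gene. Over the whole route, 15 of the 17 measured sterol enzymes were at 1 FPKM or more in both libraries.

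**Figure D3:**
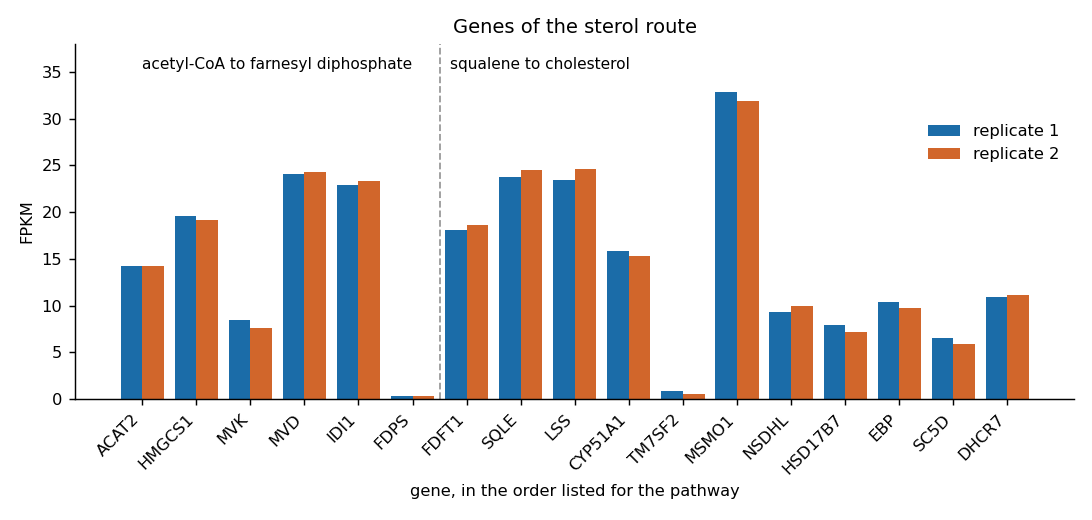
FPKM (linear axis from 0) of the 17 measured enzyme genes of the sterol route in replicate 1 (blue bars) and replicate 2 (orange bars), in the order in which the list gives them. FDPS and TM7SF2 are near the axis, and MSMO1 is the highest at 32.8 and 31.9 FPKM.

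All 6 genes of SREBP control and receptor degradation were at 1 FPKM or more, and within each related pair 1 gene prevailed. SREBF2, which encodes the SREBP form mainly tied to cholesterol genes, had 30.1 and 30.7 FPKM. SREBF1, whose products act more on fatty acid genes, had 6.45 and 7.14 FPKM. SREBF2 was thus 4.66-fold and 4.30-fold higher than SREBF1. SCAP, the sterol-sensing escort of both factors, had 23.1 and 24.3 FPKM, below SREBF2 and above SREBF1 in each library. INSIG1, an anchor of SCAP that is itself an SREBP target, had 19.7 and 18.9 FPKM. INSIG2, the related anchor, had 2.95 and 2.98 FPKM. The ratio of INSIG1 to INSIG2 was 6.68 and 6.35. RefSeq holds 2 genes under the symbol INSIG2, so no position is given for it, and whether reads were shared between them was not tested. MYLIP, a ubiquitin ligase that marks lipoprotein receptors for degradation, had 1.48 and 1.48 FPKM and was the lowest of the 6. No ranges overlapped between neighbours in the order SREBF2, SCAP, INSIG1, SREBF1, INSIG2 and MYLIP.

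Genes of sterol transport, storage and efflux differed widely. NPC2, which carries cholesterol inside the lysosome, had 50.3 and 47.5 FPKM. NPC1, the membrane protein that takes cholesterol from NPC2, had 10.9 and 11.5 FPKM. SOAT1, which esterifies cholesterol for storage, had 11.7 and 11.2 FPKM, a range that overlapped that of NPC1. NPC2 was 4.63-fold and 4.13-fold higher than NPC1. STARD4, a cytosolic sterol carrier, had 3.48 and 3.90 FPKM, and ABCA1, which exports cholesterol to apolipoproteins, had 3.47 and 3.52 FPKM. These ranges overlapped as well. ABCG1, an exporter to mature lipoprotein particles, had 0.0514 and 0.0673 FPKM from 10 and 12 reads, the lowest level of any member. ABCA1 was 67.5-fold and 52.3-fold higher than ABCG1, a ratio that rests on those few ABCG1 reads. The liver X receptors, sterol-activated nuclear receptors that switch on both exporter genes, also differed in level: NR1H2 had 27.9 and 27.1 FPKM, and NR1H3 had 0.230 and 0.339.

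The 3 measured genes of fatty acid synthesis were each above 10 FPKM in both libraries. ACACA, the cytosolic acetyl-CoA carboxylase that makes malonyl-CoA, had 17.3 and 16.8 FPKM. FASN, the fatty acid synthase, had 55.2 and 55.6 FPKM from 13543 and 12488 reads. SCD, the desaturase that makes oleate from stearate, had 17.9 and 17.7 FPKM. FASN was 3.19-fold and 3.30-fold higher than ACACA, and none of the ranges of these 3 genes overlapped. In RefSeq, FASN (ENSSSCG00000029944 in the table) lies on chromosome 12 from 922405 to 937560. Its mean level put it at percentile 93.7 of the identifiers with a symbol.

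The 5 fatty acid elongase and desaturase genes were the most abundant of the 7 role groups by the sum of their FPKM, and held 25.0% and 25.1% of the members' summed FPKM. FADS2, the desaturase of the first step from dietary essential fatty acids, had 92.4 and 93.0 FPKM, at percentile 96.7 of identifiers with a symbol. FADS1, the desaturase of the later step towards arachidonate, had 53.6 and 54.0 FPKM. The ratio of FADS2 to FADS1 was 1.72 in both libraries, and FADS1 was 2.998-fold and 3.05-fold above SCD. ELOVL5, the elongase that works between these desaturases, had 49.5 FPKM in each library. ELOVL6, which elongates saturated chains, had 3.32 and 3.19 FPKM, and ELOVL1, which makes very long saturated chains, had 0.514 and 0.461 FPKM from 45 and 37 reads. ELOVL5 was 14.9-fold and 15.5-fold above ELOVL6 and 96.3-fold and 107-fold above ELOVL1. ELOVL1 therefore joined FDPS, TM7SF2 and ABCG1 under 1 FPKM. The RefSeq model of ELOVL1, on chromosome 6 from 167881357 to 167886125, overlaps no other gene.

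FADS1 and FADS2 are neighbours in the genome. In RefSeq, FADS2 (ENSSSCG00000013072) lies on chromosome 2 from 9633941 to 9666666 and FADS1 (ENSSSCG00000024015) from 9735425 to 9747405, with 68758 bp and no whole RefSeq gene between the models. FADS3, a related desaturase gene that is not a member, lies on the other side of FADS2, from 9607627 to 9627352, at a distance of 6588 bp. It had 128.7 and 129.7 FPKM, 1.39-fold and 1.40-fold above FADS2, so all 3 genes of the cluster were above 50 FPKM in both libraries. The FADS2 model overlaps 2 other RefSeq genes, LOC100739565 and LOC106509334. The FADS2 value is uncertain to the extent that reads were assigned between these genes.

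The acyl-CoA synthetases activate fatty acids for use. ACSL4, which prefers arachidonate and related polyunsaturated acids, had 69.8 and 72.4 FPKM from 12810 and 12165 reads. ACSL1, a widely expressed long-chain synthetase, had 14.2 and 13.9 FPKM. ACSL3, found at the endoplasmic reticulum and on lipid droplets, had 9.71 and 9.58 FPKM. ACSL4 was 4.93-fold and 5.21-fold above ACSL1 and 7.19-fold and 7.56-fold above ACSL3. ACSL1 was 1.46-fold and 1.45-fold above ACSL3, and none of these ranges overlapped. ACSL4 lies on chromosome X from 89760863 to 89838103 in RefSeq.

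**Figure D4:**
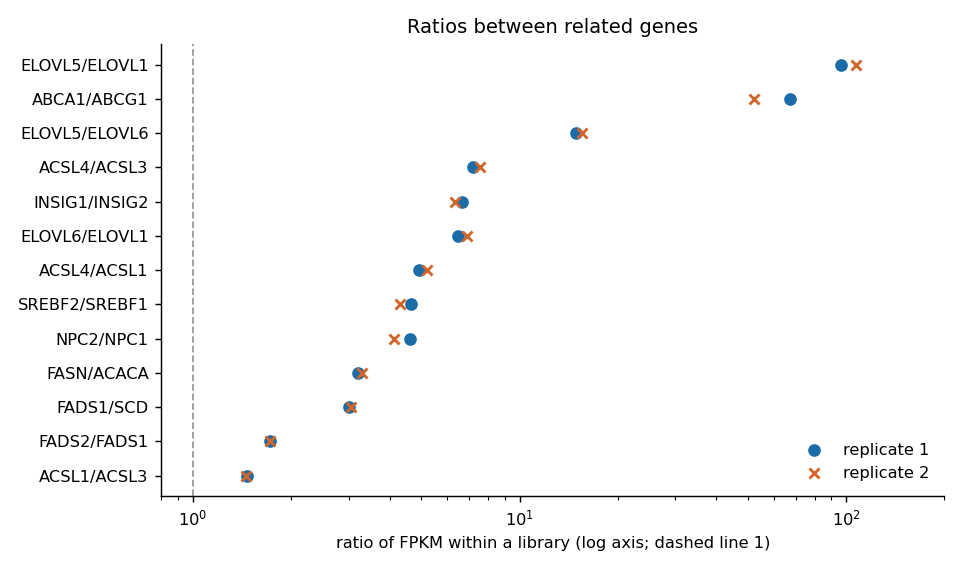
Ratio of FPKM between related genes within replicate 1 (circles) and replicate 2 (crosses), on a log axis with a line at 1. Of the pairs drawn, most have replicates close together, from 1.46 and 1.45 for ACSL1 over ACSL3 to 96.3 and 107 for ELOVL5 over ELOVL1, and those of ABCA1 over ABCG1 (67.5 and 52.3) lie farthest apart.

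Ranked by mean over all 40 members, neighbours overlapped in 13 of 39 pairs. The first 5 places, FADS2, ACSL4, FASN, FADS1 and ELOVL5, did not overlap with one another. NPC2 overlapped with ELOVL5. MVD, SQLE, LSS, SCAP and IDI1 formed an unbroken run in which each gene overlapped the next, so the order of neighbours in the run is not beyond the spread between libraries. That does not hold across the whole run: IDI1 overlapped SCAP but was below MVD, SQLE and LSS in both libraries without overlap.

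The difference between the libraries was small for nearly all of these genes. The coefficient of variation between libraries had a median of 2.01% over the 36 members at 1 FPKM or more, beside 2.41% over all detected identifiers with a symbol. These 2 sets were not matched for level. Over all measured members the median level was 14.1 FPKM, against 3.90 over all identifiers with a symbol. Replicate 1 was higher for 20 members and replicate 2 for the other 20. An exact binomial test on the recovered reads, which compares these libraries and no condition, separated 0 of the 40 members at a Benjamini-Hochberg adjusted p under 0.05, beside 1.11% of the 16327 genes with reads. At an unadjusted p under 0.05 the exact test separated 5 of 40, beside 10.2% of all genes with reads. These 5 were LSS, SCAP, NPC2, STARD4 and ACSL4. ACSL4 had the lowest p of the exact binomial test, 0.00428 unadjusted and 0.156 adjusted, with replicate 2 being 1.04-fold higher. For TM7SF2 the exact test gave 0.111 unadjusted and 0.640 adjusted, so its 1.67-fold difference between libraries was within counting error by this test.

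**Figure D5:**
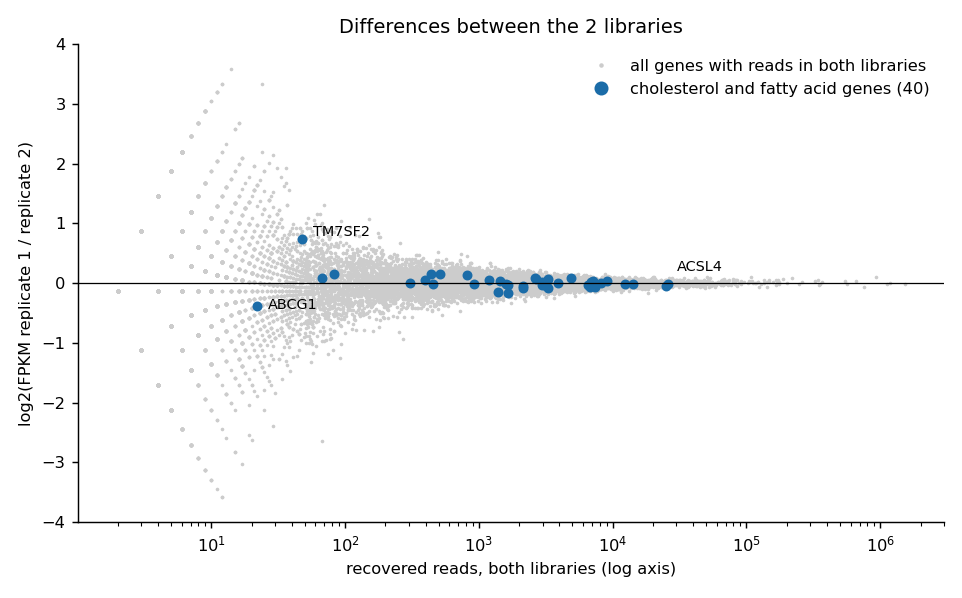
log2 ratio of FPKM in replicate 1 over replicate 2 against the recovered reads of both libraries (log axis), for all genes with reads in both (grey) and the 40 lipid genes (blue). Of the lipid genes, TM7SF2 (31 and 17 reads) and ABCG1 (10 and 12) lie farthest from 0. FDPS (36 and 31) and ELOVL1 (45 and 37), which also have few reads, lie nearer to 0.

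The positions of the members bear on how far their values can be read. Of the 40 measured members, 38 matched a RefSeq gene by symbol, CYP51A1 matched through a synonym, and IDI1 was not matched. LSS lies on an unplaced sequence and INSIG2 has more than one match, so overlaps could be looked up for 37 members. The models of 7 of these 37 overlap another RefSeq gene: ACAT2, SC5D, NPC1, STARD4, ACACA, ELOVL6 and FADS2. Reads in such overlaps can be dropped or assigned to either gene. None of the 4 members under 1 FPKM was among them. The share of all RefSeq genes with such an overlap is not given here, and why these 4 members are low was not tested. Identifiers and RefSeq genes were joined by symbol alone, so a pairing was not checked by position.

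Other genes of the same pathways, from lists of 34 sterol and 33 fatty acid genes, ranged from abundant to listed at 0. Of 31 measured further sterol genes, 25 were at 1 FPKM or more in both libraries and 17 at 10 or more, with a median of 13.7 FPKM. Of all identifiers with a symbol, 61.5% and 32.8% reached these levels, with a median of 3.90 FPKM. The highest was CYB5R3, the reductase that supplies electrons for sterol and fatty acid desaturation, with 118 and 128 FPKM. Among the lowest were CYP27A1, a sterol hydroxylase, with 0.0932 and 0.0291 FPKM, and CH25H, which makes an oxysterol, listed at 0 in both libraries. Of 31 measured further fatty acid genes, 24 were at 1 FPKM or more and 12 at 10 or more, with a median of 5.35 FPKM. These values were nearer to those of all identifiers with a symbol than the sterol list was. FADS3 was the highest, and DBI, an acyl-CoA carrier, had 59.6 and 55.1 FPKM. THRSP and MLXIPL, regulators of fatty acid synthesis in liver and fat, and the synthetase gene ACSL6 were listed at 0 in both libraries.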

How the data were processed

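Total RNA of 2 libraries of the PSI clone was extracted with TRIzol and prepared with a NEBNext Ultra kit, per the labels' protocols. The submitters' processing notes name TopHat2 2.0.12, HTSeq 0.6.1 and the build Sscrofa11.1; the sources used here give no annotation release, strand setting or filter. The authors deposited FPKM values, 1 column per library, which were used as deposited. By default HTSeq discards reads that align to more than one place or gene, so genes with near-identical copies can be listed too low.

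FPKM values of a gene are multiples of the value of 1 read. The library totals were taken as those under which gene lengths come out whole. Between 50 and 30000 bp, the smallest length that turned both libraries' values into whole reads (tolerance 1.2 times the rounding) was kept for each gene. This gave whole reads for 100% of 16327 genes above 0, summing to 90.8% of each total. They are the smallest that could be fitted and may be a fraction of the true ones. The recovery and the test were tested on simulated data. There both library totals were recovered exactly, while 85.3% of genes with reads got their true reads and 14.7% got fewer. Where reads are too few, the test is less able to separate the libraries. In the simulation it called 99% of 100 genes given a 2-fold change and 89% of 100 given a smaller change. Those genes averaged at least 50 recovered reads per library. The simulated reads varied by counting error only, and the number of unchanged genes called is not given here. Reads of the libraries were set against each other in every gene by an exact binomial test (two-sided), which covers counting error only, since PCR copies of a molecule are counted as separate reads. Its p-values were adjusted by Benjamini-Hochberg over all genes with reads (scipy 1.17.1).

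With 1 group, no test between conditions was possible. Levels are given per library, lists by log2(FPKM + 1) of the mean, and the detection levels were 1 and 10 FPKM in both libraries. Symbols came from a gene name table and positions from RefSeq on Sscrofa11.1. The members and lists were chosen with earlier results of these data known. Named were all measured members, markers at 1 FPKM or more, and further pathway genes at the top and bottom of their lists or of central role; some of the last are not reported here. Markers under 1 FPKM, TPI1, RPL29 and the ratios that involve FDPS, TM7SF2 and FADS3 were chosen after the values were seen. Alternatives changed the pseudocount, detection level, scaling, list summary, low-value filter and test, and left out each library.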

Additional observations from a re-analysis of the deposited data

How the results depend on the processing

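Over all 40 measured members, the count of detected members ranged from 31 to 38: 36 at 0.5 FPKM, 35 at 2, 31 at 5, 38 with columns rescaled to equal sums (TPM), and 36 to 36 without replicate 1 or replicate 2. The count at 10 FPKM or more was 31 after that rescaling and 24 to 25 without one of the replicates. Rescaling raised the values of all genes, not of the members alone. The share of all identifiers at these other settings is not given here. The counts therefore do not show how far the members exceed the table there. The exact binomial test called 0 members under both alternatives. With the library share taken from the summed recovered reads, it called 187 of 16327 genes. With only genes of 10 recovered reads or more in sum, it called 220 of 13199. List levels moved with their definition. In the order all members, mevalonate, squalene to cholesterol, SREBP control, transport, fatty acid synthesis, elongation and desaturation, and acyl-CoA synthetases, the median on the log2 scale was 3.92, 4.14, 3.59, 3.65, 2.92, 4.23, 5.66 and 3.91. With a pseudocount of 0.1 it was 3.83, 4.06, 3.48, 3.53, 2.71, 4.16, 5.63 and 3.82. As a mean it was 3.67, 3.51, 3.62, 3.37, 2.90, 4.74, 4.13 and 4.498, so the order of the lists depends on the summary: elongation and desaturation is highest by the median and fatty acid synthesis by the mean. After rescaling it was 5.30, 5.53, 4.95, 5.01, 4.22, 5.63, 7.08 and 5.29, which follows from the larger column sums. With members at 0.1 FPKM or more only, the transport list rose to 3.61, since ABCG1 was left out. In an alternative added after seeing the data, without the 7 members whose RefSeq models overlap another gene, 29 of 33 members were detected and 20 reached 10 FPKM, and the medians were 4.05 over all members, 4.35 for mevalonate, 3.82 for squalene to cholesterol and 5.03 for fatty acid synthesis, with fewer members in each. With 2 libraries, leaving one out gives the other's value, which is no check of stability. No paired analysis was possible because there is 1 group. The sequence comparisons planned for promoters and proteins were not run. At this depth FDPS, TM7SF2, ABCG1 and ELOVL1 rest on fewer than 50 reads per library, so their ratios to other genes are less precise than the others.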
